A study of Mus musculus with 8 samples.

Results

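The myogenic transcription factors around Myod1 were followed as 9 genes: Myod1, Myf5, Myog and Myf6 of the MyoD family, Mef2a, Mef2c and Mef2d of the MEF2 family, the TEA-domain factor Tead4 and the paired-box factor Pax7. They were taken by gene symbol from 19938 genes that carry 1 symbol on the array, each through its brightest probe set, and Mef2d also through its other probe set. The samples were TA (tibialis anterior) muscle and cerebellum of SCA17 KI (knock-in) and WT (wild-type) mice, all 3 months old, measured on Affymetrix Mouse Gene 1.0 ST arrays. In SCA17, an inherited ataxia, the polyglutamine stretch of the TATA-binding protein TBP is lengthened; the labels used here name no tract length, strain or sex. The 8 arrays formed 4 groups of 2, numbered in the labels: KI muscle (94 and 97), WT muscle (95 and 96), KI cerebellum (94 and 97) and WT cerebellum (95 and 96). The study describes 3 KI and 3 WT mice, and no label says whether an array holds 1 animal, so p-values measure the spread between these arrays.

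The MyoD family are basic helix-loop-helix factors that bind E-boxes together with E proteins and switch on muscle genes. Myod1 and Myf5 commit cells to muscle, Myog (myogenin) drives their differentiation, and Myf6 (MRF4) is the main family member of adult fibres. MEF2 factors are MADS-box proteins that act with the MyoD family on muscle promoters and also work in neurons. Tead4 binds M-CAT elements and pairs with YAP, TAZ or Vestigial-like cofactors, and Pax7 marks satellite cells, the stem cells of muscle. MyoD is known to contact TBP, the protein that carries the expansion in SCA17.

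Levels are the authors' RMA values, which are log2 expression per probe set. They are compared only within a probe set, apart from the level filter and the lower bounds drawn from it. A difference of 1 on this scale is 2-fold. Array medians lay between 5.40 and 5.51, and replicate arrays correlated at r of 0.977 to 0.989 across probe sets, which are not independent of each other. The labelled tissues carried their markers: the summed linear level of 6 myofibre genes was 20992.5 to 26435 on the muscle arrays and 443 to 514 on the cerebellum arrays, and that of 5 granule cell genes was 127 to 142 in muscle and 6807 to 9427 in the cerebellum. Testing in a tissue required a level at or above the 40th percentile of the array (4.96 to 5.05) on 2 or more of that tissue's 4 arrays. All 9 genes were tested in muscle and 7 in the cerebellum, where Myf5 and Myf6 stayed below that level.

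**Figure D1:**
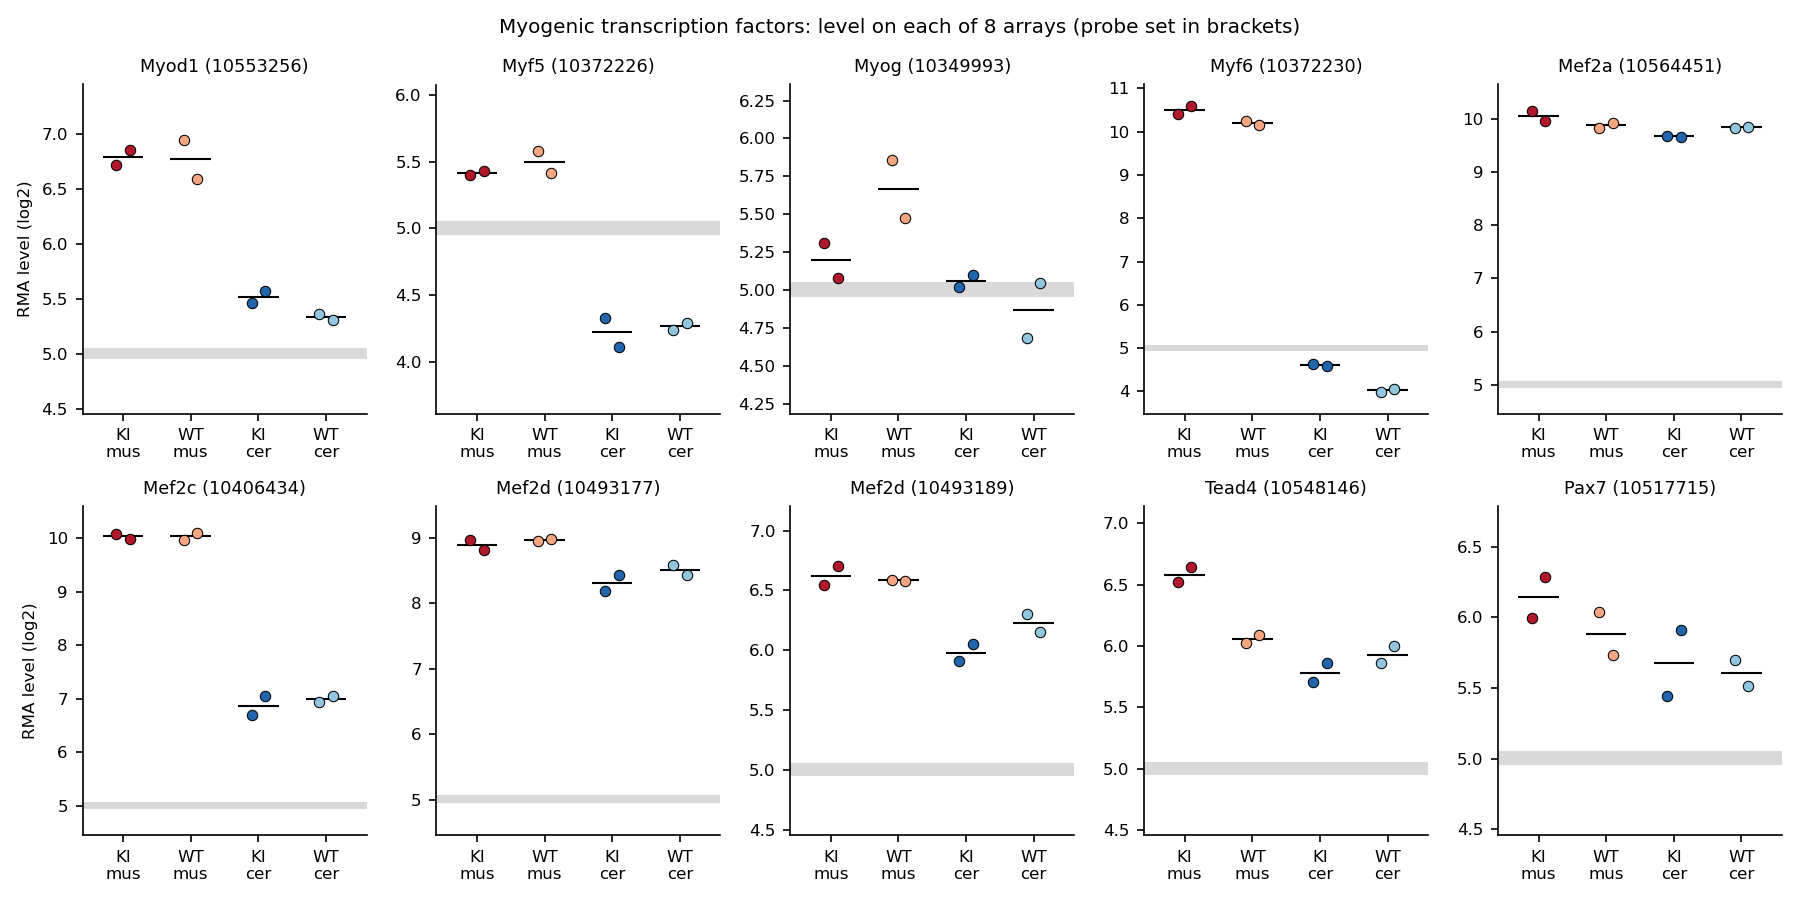
Level (RMA, log2) of each factor on the 8 arrays, by group, with 1 panel per probe set and an axis of its own. Points are arrays, horizontal lines are group means, and the grey band spans the 40th percentiles of the 8 arrays (4.96 to 5.05); Tead4 in KI muscle lies above WT muscle without overlap, and Mef2c and Myf6 are far higher in muscle than in the cerebellum.

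Muscle was set against the cerebellum to place each factor by tissue. Myf6 and Mef2c were far higher in muscle, Myod1 was 2.55-fold higher, and Myog, Mef2a, Mef2d, Tead4 and Pax7 differed by less than 2-fold. Myf5 and Myf6 entered this comparison through muscle alone, so their difference is given as a lower bound, against the 40th percentile of the cerebellum arrays. The filter largely fixed the direction of these bounds, so only their size is described. Of the 7 factors kept in both tissues, 2 were called higher in muscle at an adjusted p under 0.05 and at least 2-fold, Myod1 and Mef2c, where 10.2% of the 12866 genes kept in both were. At the adjusted p alone all 7 were higher, where 34.8% of those genes were. Over all 14708 genes kept in either tissue, which include those kept through 1 tissue, 11.0% were called higher and 26.0% in either direction at 2-fold, and 36.2% were higher and 72.3% passed in either direction at the adjusted p alone. The factors were chosen as muscle regulators, so these counts describe them.

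The MyoD family differed widely in its contrast between the tissues. Myf6 was at 10.41 and 10.59 in KI muscle and 10.25 and 10.15 in WT muscle. On the cerebellum arrays it was at 4.64 and 4.59 in KI and 3.99 and 4.05 in WT. All 4 cerebellum arrays had it below their 40th percentile, which averaged 5.01, and against that value Myf6 was at least 40.6-fold higher in muscle. Myod1 was at 6.72 and 6.85 in KI muscle, against 6.94 and 6.59 in WT muscle. Its cerebellum levels were 5.46 and 5.57 in KI and 5.37 and 5.31 in WT, so the tissue difference was 1.35 ± 0.10 (log2 ± SE; 2.55-fold; adjusted p = 7.89e-07). No muscle array of Myod1 overlapped a cerebellum array, while the muscle groups overlapped each other.

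Myf5, which lies next to Myf6 on chromosome 10, had lower values on the cerebellum arrays as well. It was at 5.40 and 5.43 in KI muscle, 5.58 and 5.42 in WT muscle, 4.33 and 4.11 in KI cerebellum and 4.24 and 4.29 in WT cerebellum. All 4 cerebellum arrays were again below the 40th percentile, and against it the lower bound for Myf5 in muscle was 1.37-fold. Myf5 was kept because muscle arrays reached that same level, so the direction of this small bound was largely fixed and is not a test. Myog, whose gene is on chromosome 1, was at 5.31 and 5.08 in KI muscle and 5.86 and 5.48 in WT muscle. Its cerebellum levels were 5.02 and 5.10 in KI and 4.69 and 5.05 in WT. KI muscle therefore overlapped the KI cerebellum arrays, and only WT muscle stood clear of all cerebellum arrays. The difference was 0.47 ± 0.12 with both genotypes averaged (SE; adjusted p = 0.00518) and 0.80 ± 0.17 in the WT arrays (adjusted p = 0.0021).

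Promoters of 6 of the 9 factors were in the RefSeq table used (GRCm38.p6); Myod1, Myf6 and Tead4 were not among them. Those of Myog and Myf5 are shown because they are the MyoD-family genes with a listed promoter. Each run holds the 250 bases before the start, read 5′ to 3′ on the gene's strand. Capitals mark matches to the E-box CANNTG, bound by the MyoD family, and to CTANNNNTA, a loose core of the MEF2 site, on either strand.
Myog promoter, chr1:134289754-134290003, plus strand: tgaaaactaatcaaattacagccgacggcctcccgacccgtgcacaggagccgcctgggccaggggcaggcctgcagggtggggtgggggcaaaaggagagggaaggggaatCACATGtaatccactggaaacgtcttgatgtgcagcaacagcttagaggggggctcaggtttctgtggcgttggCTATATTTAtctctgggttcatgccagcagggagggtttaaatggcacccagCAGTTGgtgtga
Myf5 promoter, chr10:107486135-107486384, minus strand: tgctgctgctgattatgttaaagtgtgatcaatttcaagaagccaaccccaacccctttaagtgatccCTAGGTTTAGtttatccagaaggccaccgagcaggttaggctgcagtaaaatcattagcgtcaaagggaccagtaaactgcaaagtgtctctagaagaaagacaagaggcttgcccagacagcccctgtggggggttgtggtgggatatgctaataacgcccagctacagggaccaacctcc
The Myog window held 2 E-boxes, the nearer 12 to 7 bases before the start, and 1 MEF2 core 64 to 56 bases before it. The Myf5 window held no E-box and overlapping MEF2 cores, 1 on each strand, 182 to 173 bases before the start. Of 32841 promoter windows of this length in the table, 66.2% held an E-box, 19.0% held the MEF2 core and 13.0% held both. The M-CAT element CATTCC, to which TEAD factors bind, was in neither window and in 12.6% of all windows.

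Among the MEF2 genes, Mef2c had by far the widest tissue contrast. It was at 10.08 and 9.99 in KI muscle and 9.97 and 10.10 in WT muscle. On the cerebellum arrays it was at 6.70 and 7.05 in KI and 6.94 and 7.06 in WT. The difference was 3.10 ± 0.10 (SE; 8.55-fold; adjusted p = 2.23e-09). Mef2d was 0.52 ± 0.09 higher in muscle by its brighter probe set (1.43-fold; adjusted p = 0.000455) and 0.50 ± 0.08 by its other probe set (1.41-fold; adjusted p = 0.00129, among all probe sets). Mef2a differed by 0.21 ± 0.08 (adjusted p = 0.0332), and by 0.04 ± 0.11 in the WT arrays alone (adjusted p = 0.783).

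For Tead4 and Pax7 the tissue difference was likewise small. Tead4 was 0.46 ± 0.08 higher in muscle (SE; adjusted p = 0.000523), but 0.13 ± 0.11 in the WT arrays alone (adjusted p = 0.332). Pax7 was 0.37 ± 0.13 higher (adjusted p = 0.0255), and 0.28 ± 0.18 in the WT arrays (adjusted p = 0.199). Mef2a and Pax7 did not reach 2-fold, so neither was called between the tissues. With 1 of the 8 arrays left out at a time, Mef2a ran from 0.17 to 0.26 and Pax7 from 0.25 to 0.49. For both, whether the adjusted p stayed under 0.05 depended on which array was left out. Of the 7 factors kept in both tissues, 4 had every muscle array above every cerebellum array, where 30.8% of the genes kept in both did. Over the genes kept in either tissue 31.6% did, 33.2% were lower without overlap and 64.9% were without overlap in either direction.

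**Figure D2:**
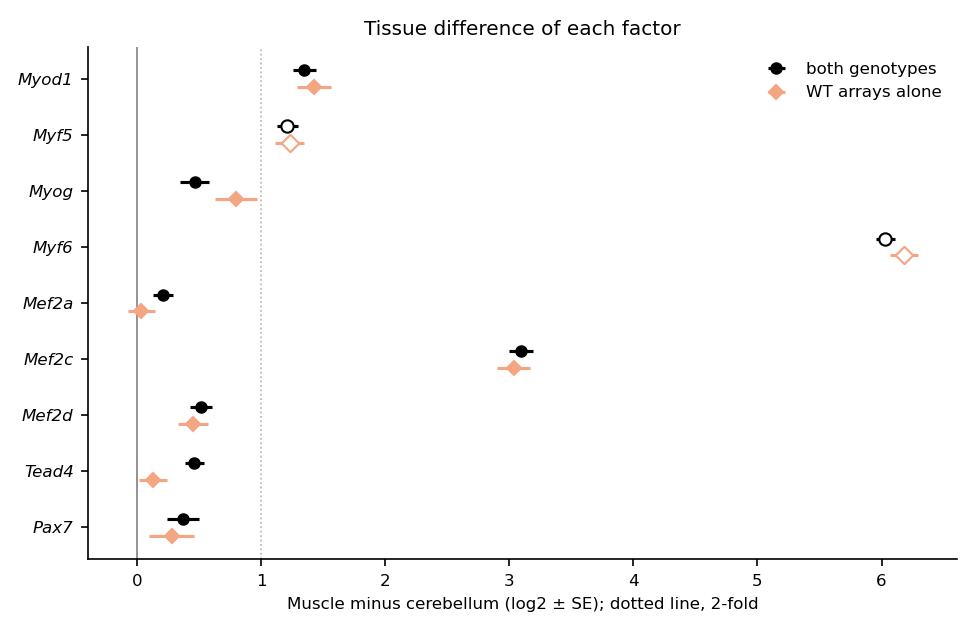
Muscle minus cerebellum for each factor (log2 ± SE from the limma fit), with both genotypes averaged (black) and in the WT arrays alone (orange). Open symbols mark Myf5 and Myf6, whose cerebellum levels were below the 40th percentile, so that only the lower bound in the text is read from them; Mef2c at 3.10 lies far to the right of the dotted 2-fold line, and Tead4 drops to 0.13 in the WT arrays.

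KI muscle was set against WT muscle to ask which of these factors differ with the SCA17 genotype. Tead4 was 1.44-fold higher in KI muscle and was the only one of the 9 to pass. Myod1 and Mef2c were within 0.02 of their WT means. Thus 1 of 9 tested factors was called higher and 0 lower, where 2.66% of the 13933 genes tested were called higher, 0.890% lower and 3.55% in either direction. At an unadjusted p under 0.05 there were 3 of the 9 (Tead4, Myog and Myf6), where 20.3% of all genes were. Fewer cells of a type and less RNA per cell cannot be told apart in whole muscle.

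Tead4 (probe set 10548146, chromosome 6) was at 6.52 and 6.64 in KI muscle, against 6.02 and 6.09 in WT muscle. The KI arrays were the higher pair without overlap, and the distance between the groups was several times the spread within each. The means were 6.58 ± 0.08 in KI and 6.06 ± 0.05 in WT (SD, n = 2 each), a difference of 0.52 ± 0.11 (SE; adjusted p = 0.0400, limma). Its 95% interval ran from 0.27 to 0.78, or 1.20-fold to 1.72-fold. Leaving out any 1 of the 8 arrays, cerebellum arrays included, ended the call: the adjusted p was from 0.0943 to 0.185 without a muscle array and from 0.0532 to 0.0734 without a cerebellum array. It was 0.0939 with the muscle arrays alone, 0.0773 with no filter, 0.0505 after quantile normalisation and 0.1003 over all probe sets, while the difference stayed between 0.46 and 0.58 in all 16 alternatives.

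**Figure D3:**
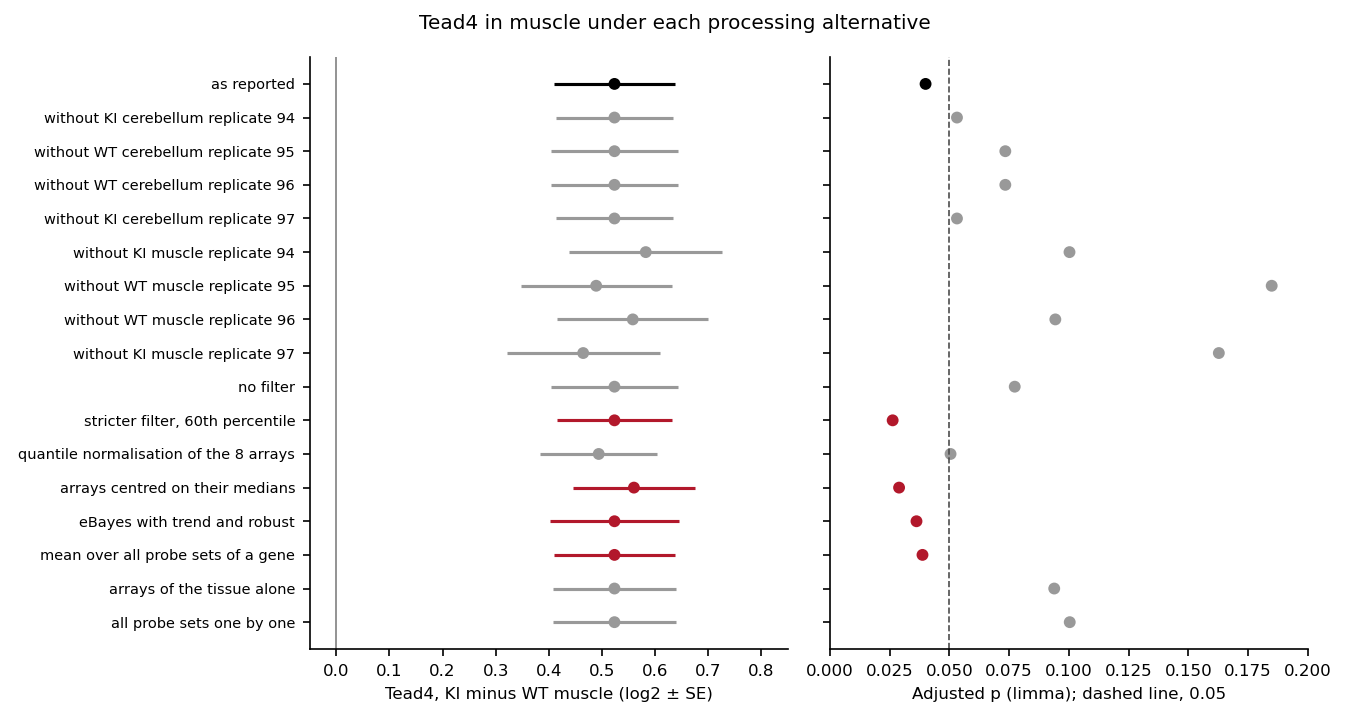
Tead4 in KI minus WT muscle under the reported fit (black) and 16 alternatives: the log2 difference ± SE on the left and the adjusted p on the right, with 0.05 dashed. The difference stays between 0.46 and 0.58, and the adjusted p is below 0.05 in 4 alternatives (red) and above it in 12 (grey).

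Cell type markers shifted between the same muscle arrays. The summed linear level of the 6 myofibre genes was 20992.5 to 21059 in KI and 25168 to 26435 in WT muscle, with 6 of 6 genes lower and none called. That of 5 macrophage genes was 558 to 618 in KI and 443 to 517 in WT, with 5 of 5 higher and none called. That of 5 satellite cell genes other than Pax7 was 463 to 497 in KI and 447 to 508 in WT, overlapping, and 5 fibroblast and 5 endothelial genes overlapped as well. Their part in the Tead4 difference was not tested.

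The MyoD family showed differences in both directions, none of which passed. Myog was at 5.31 and 5.08 in KI muscle, against 5.86 and 5.48 in WT muscle, without overlap, a difference of -0.47 ± 0.17 (SE; adjusted p = 0.159, 95% interval -0.84 to -0.10). Without WT muscle replicate 95 the difference was -0.28 (adjusted p = 0.555) and without WT muscle replicate 96 it was -0.66 (adjusted p = 0.105). Myf6 was without overlap in the other direction, at 10.41 and 10.59 in KI and 10.25 and 10.15 in WT, a difference of 0.30 ± 0.11 (adjusted p = 0.179, 95% interval 0.05 to 0.55).
Myod1 differed by 0.02 ± 0.13 (adjusted p = 0.962), with a 95% interval from -0.29 to 0.32, or 0.821-fold to 1.25-fold. Its WT arrays, at 6.94 and 6.59, enclosed both KI arrays. The sign of this difference turned negative after quantile normalisation (-0.06) and without KI muscle replicate 97 (-0.05) or WT muscle replicate 96 (-0.16). Myf5 differed by -0.08 ± 0.12 (adjusted p = 0.739, 95% interval -0.35 to 0.18).

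The MEF2 genes and Pax7 did not pass either. Mef2a was at 10.14 and 9.96 in KI muscle and 9.82 and 9.93 in WT muscle, a difference of 0.18 ± 0.11 without overlap (adjusted p = 0.400). Mef2c differed by less than 0.01 on the log2 scale (SE 0.13; 95% interval -0.30 to 0.30). Mef2d was at 8.96 and 8.81 in KI and 8.94 and 8.98 in WT, overlapping, with a difference of -0.08 ± 0.12 (adjusted p = 0.778). Its other probe set gave 0.04 ± 0.12 (adjusted p = 0.907, among all probe sets), from 6.54 and 6.70 in KI and 6.59 and 6.58 in WT. Pax7 was at 5.99 and 6.29 in KI and 6.04 and 5.73 in WT, a difference of 0.26 ± 0.18 (adjusted p = 0.471, 95% interval -0.15 to 0.66). In all, the genotypes did not overlap in 4 of the 9 genes, 3 higher and 1 lower in KI, where 30.3% of all genes tested were higher without overlap, 19.9% lower and 50.2% either. The median difference of the 9 was 0.02, and that of all genes tested was 0.03.

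**Figure D4:**
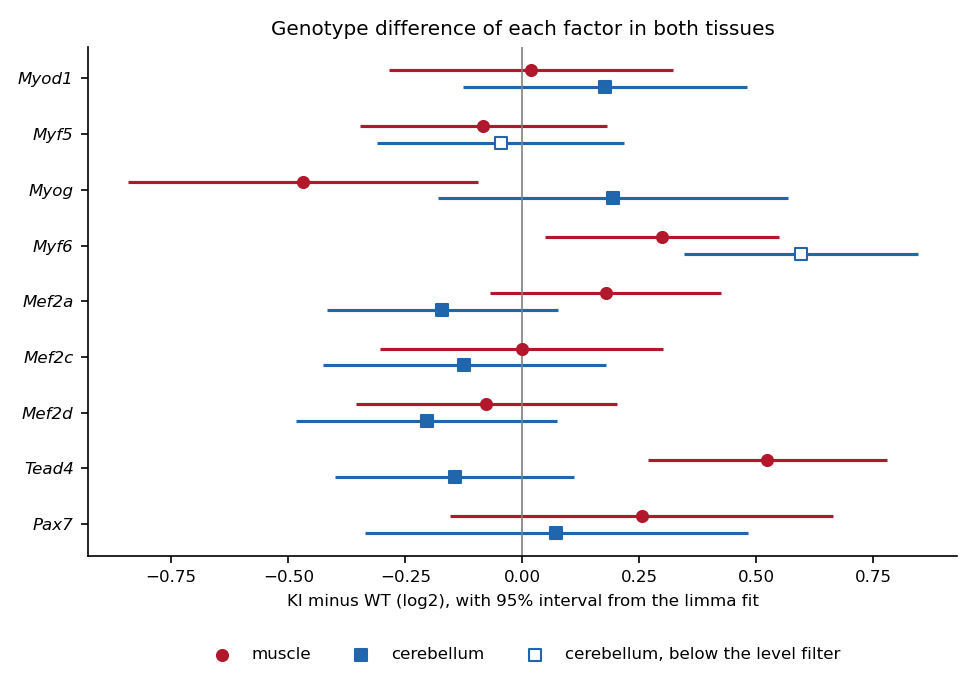
KI minus WT for each factor in muscle (red circles) and in the cerebellum (blue squares), on the log2 scale with the 95% interval of the limma fit. Open squares mark Myf5 and Myf6, which were below the level tested in the cerebellum and from which no difference is read; in muscle the interval of Tead4 runs from 0.27 to 0.78 and that of Myod1 from -0.29 to 0.32.

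The same comparison in the cerebellum called none of the 7 factors tested. Limma gave 0 calls in either direction at an adjusted p under 0.05, where 0.205% of the 13641 genes tested were called (0.147% higher and 0.0586% lower). It gave 0 at an unadjusted p under 0.05, where 5.33% of all genes were. Myod1 was at 5.46 and 5.57 in KI, against 5.37 and 5.31 in WT, without overlap (0.18 ± 0.13, SE; adjusted p = 0.998). Mef2a was at 9.68 and 9.65 in KI and 9.83 and 9.84 in WT, also without overlap but with KI lower (-0.17 ± 0.11; adjusted p = 0.998). Mef2d was lower without overlap by both probe sets, at -0.20 ± 0.12 (adjusted p = 0.998) and -0.25 ± 0.12 (adjusted p = 0.9997, among all probe sets). By the brighter one the gap was very narrow, with the highest KI array at 8.427 and the lowest WT array at 8.431. Counting the brighter one, 1 of the 7 genes was higher and 2 were lower without overlap, where 15.3% of all genes were higher, 20.0% lower and 35.3% either. The summed level of 4 Purkinje cell genes was 4550 to 5020 in KI and 6870 to 7339 in WT cerebellum, and that of the 5 granule cell genes was 6807 to 7599 in KI and 8293 to 9427 in WT. The 5 macrophage and microglia genes summed to 293 to 304 in KI and 247 to 257 in WT. None of these marker genes was called between the genotypes in the cerebellum. The part of these cells in the values was not tested.

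Myf6 and Myf5 were not tested in the cerebellum, and no difference is read from their levels. Myf6 was at 4.64 and 4.59 in KI cerebellum and 3.99 and 4.05 in WT cerebellum, without overlap and below the 40th percentile on all 4 arrays. Myofibre genes in the cerebellum summed to 474 to 497 in KI and 443 to 514 in WT, overlapping. Myog (0.19 ± 0.17), Mef2c (-0.12 ± 0.13), Tead4 (-0.14 ± 0.11) and Pax7 (0.07 ± 0.18) overlapped between the genotypes.

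Whether the genotype acts differently in muscle and cerebellum was tested directly, by subtracting KI minus WT in the cerebellum from KI minus WT in muscle. None of the 9, Myf5 and Myf6 kept through muscle alone, passed in limma, where 0.143% of the 14708 genes did (0.102% higher and 0.0408% lower). At an unadjusted p under 0.05 there were 2 of the 9, where 13.8% of all genes were. These were Tead4, with 0.67 ± 0.16 (SE; adjusted p = 0.133, 95% interval 0.31 to 1.03), and Myog, with -0.66 ± 0.23 (adjusted p = 0.281, 95% interval -1.19 to -0.13). Mef2a, without overlap in opposite directions in the 2 tissues, gave 0.35 ± 0.15 (adjusted p = 0.362). Myod1 gave -0.16 ± 0.19 (adjusted p = 0.733), with an interval from -0.59 to 0.27.

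Genes around these factors were counted in 6 lists, to be read against all 13933 genes tested in muscle, of which 2.66% were called higher and 0.890% lower, with a median difference of 0.03. Of 21 partners and inhibitors of the MyoD family, all tested in muscle, 1 rose and 0 fell, where 2.66% of all genes rose. It was Zeb1, a repressor that binds E-box-like sites, at 8.67 and 8.63 in KI and 8.18 and 8.14 in WT muscle (0.49 ± 0.11, SE; adjusted p = 0.0385). Tcf4, an E protein, was at 0.47 ± 0.11 (adjusted p = 0.0522), Hes6, a cofactor of myogenic differentiation, at 0.66 ± 0.17 (0.0653), and Id1, which sequesters E proteins, at -0.40 ± 0.11 (0.0748). The list's median was 0.04.

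Of 15 measured MEF2 regulators 3 rose and 0 fell, with a list median of 0.12, where 2.66% of all genes rose and 0.890% fell and their median was 0.03. Akap6, the anchoring protein of the muscle nuclear envelope, was at 8.06 and 7.97 in KI and 7.46 and 7.43 in WT muscle (0.57 ± 0.10, SE; adjusted p = 0.0199). Mamstr, a MEF2 coactivator of skeletal muscle, was at 7.10 and 7.01 in KI and 6.63 and 6.46 in WT (0.51 ± 0.11; 0.0393). Kat2b, the acetyltransferase PCAF, was at 8.09 and 7.97 in KI and 7.37 and 7.59 in WT (0.56 ± 0.13; 0.0466). All 3 were without overlap between the genotypes, while Cabin1, a MEF2 corepressor, was at 0.24 ± 0.11 (0.257).

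Among 19 measured TEAD partners and Hippo pathway genes, 1 rose and 0 fell, with a median of 0.10, where 2.66% of all genes rose. Vgll3, a Vestigial-like cofactor of TEAD factors, was at 6.09 and 6.14 in KI and 5.68 and 5.64 in WT muscle (0.45 ± 0.10, SE; adjusted p = 0.0438). The Hippo kinase gene Stk4 was at 0.41 ± 0.10 (0.0664), and the coactivators Yap1 and Wwtr1 (TAZ) were at 0.25 ± 0.10 (0.221) and 0.28 ± 0.12 (0.240). Of 19 satellite cell and embryonic muscle regulators none passed in limma, and 5 had an unadjusted p under 0.05 (median 0.11), where 20.3% of all genes had. The smallest p were those of the adhesion molecule Vcam1 (0.55 ± 0.17; adjusted p = 0.112), the surface antigen Cd34 (0.31 ± 0.10; 0.142), the Eyes absent family member Eya4 (0.37 ± 0.13; 0.159) and the syndecan Sdc4 (0.34 ± 0.12; 0.168).

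Targets of MyoD and myogenin moved in both directions. Of 22 tested 4 rose and 1 fell, with a median of -0.02, where 2.66% of all genes rose and 0.890% fell. Musk, the kinase of the neuromuscular junction, was at 8.68 and 8.39 in KI and 6.84 and 6.68 in WT muscle (1.77 ± 0.14, SE; adjusted p = 0.0012). The acetylcholine receptor subunits Chrna1 (1.31 ± 0.23; 0.0202) and Chrnb1 (0.84 ± 0.16; 0.0258) and the retinoblastoma gene Rb1 (0.53 ± 0.11; 0.0320) also rose. The receptor subunits did not all go this way: Chrne (-0.46 ± 0.11; 0.0598) and Chrng (-0.04 ± 0.10; 0.859) were below 0 and did not pass. Myl4, the embryonic and atrial myosin light chain, fell, at 7.54 and 7.77 in KI and 8.81 and 8.95 in WT (-1.22 ± 0.16; 0.00638). Of 11 MEF2 targets 0 rose and 2 fell, with a median of -0.10, beside the same 2.66% and 0.890% of all genes. These were the orphan nuclear receptor Nr4a1, at 8.76 and 8.70 in KI and 10.35 and 9.68 in WT (-1.29 ± 0.25; 0.0275), and Slc2a4, the insulin-responsive glucose transporter GLUT4 (-0.54 ± 0.11; 0.0348). Hspb7, a small heat shock protein (0.79 ± 0.19; 0.0520), and Smyd1, a muscle methyltransferase (0.43 ± 0.12; 0.0918), did not pass. An unadjusted limma p under 0.05 in muscle was seen in 10 of 21 partners and inhibitors of the MyoD family and 3 of 15 MEF2 regulators. It was seen in 5 of 19 TEAD and Hippo genes and 5 of 19 satellite cell and embryonic regulators. The targets gave 12 of 22 (MyoD and myogenin) and 6 of 11 (MEF2), beside 20.3% of all genes. The lists were chosen with earlier results of these data known, so these counts describe them. Musk and Myl4 were called without each of the 8 arrays in turn, while each of the other 10 called genes of these lists lost its call on leaving out at least 3 of the 4 muscle arrays, taken 1 at a time. Zeb1, Kat2b, Mamstr, Vgll3 and Slc2a4 lost it without any 1 of the 8 arrays. Chrnb1, Rb1 and Nr4a1 lost it also without either WT cerebellum array, and Akap6 and Chrna1 kept it without any 1 cerebellum array. No gene of the 6 lists was called in the cerebellum in limma, where 0.205% of all genes were called. An unadjusted p under 0.05 in the cerebellum was seen in 2 of 20 partners and inhibitors of the MyoD family and 2 of 15 MEF2 regulators tested there. It was seen in 0 of 18 TEAD and Hippo genes and 2 of 15 satellite cell and embryonic regulators. The targets gave 3 of 18 (MyoD and myogenin) and 1 of 7 (MEF2), beside 5.33% of all genes.

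**Figure D5:**
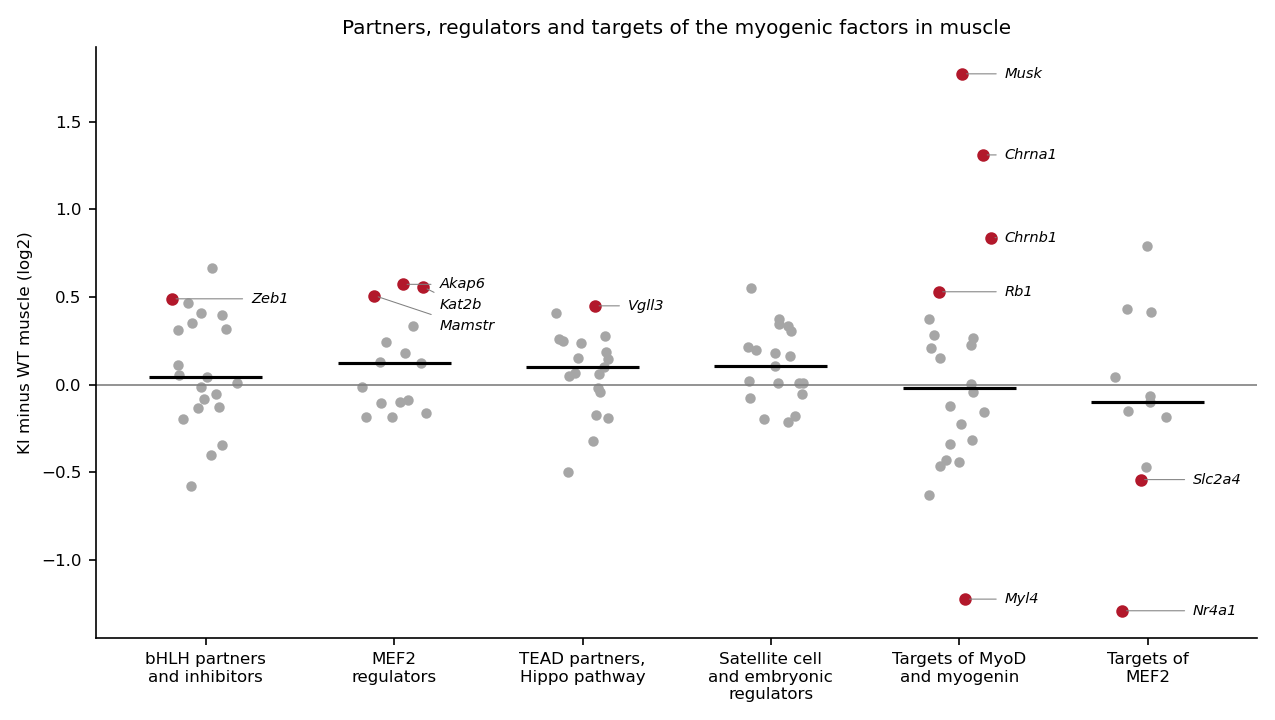
KI minus WT in muscle (log2) for every tested gene of 6 lists of partners, regulators and targets of the myogenic factors. Points are genes, red points with names passed an adjusted p of 0.05 in limma, and lines are list medians, which run from -0.10 (MEF2 targets) to 0.12 (MEF2 regulators).

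Likeness of pattern was measured as the root mean square difference between profiles centred on their own means, over the 14708 genes. Over all 8 arrays the genes closest to Myod1 were Mrpl14, Myo1c, P2rx5, Fam189a2 and Rps18, at 0.0607 to 0.0817. Those closest to Myog were Il27ra, Klrg2, Colec11, 1700001K19Rik and Prss30, at 0.0631 to 0.0882. Those closest to Tead4 were Hacl1, Vps37c, Agtrap, Trafd1 and Otulin, at 0.0592 to 0.0836. Over the 4 muscle arrays alone, Tead4 was closest to Aplf, Taf1, Zeb2, Tnik and Ap4m1 (0.0109 to 0.0220), and Myog to Gnmt, Gata4, Sptbn4, Pigf and Dync1i1 (0.0248 to 0.0343). With 4 or 8 arrays many genes share a profile, and the arrays share 2 tissues.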

How the data were processed

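Total RNA of muscle and cerebellum was measured on Affymetrix Mouse Gene 1.0 ST arrays. The authors deposited log2 expression levels, which the submitters' processing notes credit to RMA and GCOS. Versions, genome build and filters were not given in the sources used. Symbols came from the platform annotation, and a gene with several probe sets kept the one with the highest mean. Genes were fitted with limma 3.58.1 (R 4.3.3; lmFit and eBayes) with 1 mean per group over all 8 arrays, which left 4 residual degrees of freedom and a prior of 5.30. P-values were adjusted by Benjamini-Hochberg over all genes tested and called under 0.05, with at least 2-fold between tissues. The number of arrays limits the precision. The procedure was tested on simulated data.

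The members and lists were chosen with earlier results of these data known. All members were named, and in each list every called gene and then those with the smallest p in muscle, up to 4 names. Chrne and Chrng were named beside the called receptor subunits. Promoters are RefSeq's (GRCm38.p6). Alternatives were each array left out, 2 other filters, quantile normalisation, median centring, eBayes with trend and robust, the mean of probe sets, the tissue's arrays alone, the replicate block, WT arrays alone and, added after seeing the data, all probe sets one by one. The lower bounds against the 40th percentile and the counts over genes kept in both tissues were also added after seeing the data.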

Additional observations from a re-analysis of the deposited data

Results flagged for a closer look

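Musk, the receptor kinase of the neuromuscular junction and one of the listed targets of MyoD and myogenin, was the only gene of the members and 6 lists whose genotype effect differed between the tissues in the limma test of that difference. The muscle effect minus the cerebellum effect was 1.42 ± 0.19 (log2 ± SE; adjusted p = 0.0350). In muscle Musk was at 8.68 and 8.39 in KI and 6.84 and 6.68 in WT, a difference of 1.77 (adjusted p = 0.0012). In the cerebellum it was at 4.99 and 5.13 in KI and 4.81 and 4.61 in WT, a difference of 0.35 that did not pass (adjusted p = 0.856). The WT cerebellum arrays were below their 40th percentile (4.97 and 5.01), and Musk was kept there through the KI arrays, so the cerebellum value, and with it the size of the difference between the tissues, rests on levels near the bottom of what was tested. The difference was between 1.28 and 1.57 in 16 alternatives, and its adjusted p ran from 0.0175 to 0.191. The call was lost on leaving out any 1 of the 8 arrays, with no filter (0.0720), over all probe sets (0.191) and with the replicate block (0.0529).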

How the results depend on the processing

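With 1 of the 8 arrays left out at a time, the genes called between KI and WT numbered 105 to 385 in muscle (495 with all arrays) and 4 to 29 in the cerebellum (28), and those called for the difference between the tissues 0 to 23 (21); no member was called in muscle without any 1 array. With no filter muscle gave 246 genes, the cerebellum 18 and the difference 3, and over all probe sets one by one, added after seeing the data, 69, 6 and 0. The muscle arrays alone gave 155. At an adjusted p under 0.1 the counts were 995 in muscle and 108 for the difference. The difference also gave 38 with the stricter filter and 63 with trend and robust. The count of members called in muscle was 0, against 1 as reported, with no filter, quantile normalisation, the muscle arrays alone or all probe sets. The 60th percentile filter removed Myf5 and Myog, which have no value there. The tissue count of 3823 stayed within 1.5 times under every alternative run.

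Some differences changed sign when 1 array was left out. In muscle, Myod1 ran from -0.16 to 0.20 and was -0.056 after quantile normalisation, and Mef2c, at less than 0.01 from 0 as reported, ran from -0.065 to 0.062 and was 0.035 with medians centred. In the cerebellum, Myf5 ran from -0.16 to 0.064, Mef2c from -0.30 to 0.049 and Pax7 from -0.16 to 0.31. For the difference between the tissues, Myod1 ran from -0.34 to 0.020, Myf5 from -0.15 to 0.072, Mef2c from -0.051 to 0.29 and Pax7 from -0.053 to 0.42. Myf5 was also 0.0074 after quantile normalisation and 0.017 with medians centred. The Myf5 values for this difference rest in part on cerebellum levels below the level tested, so no change is read from them. The cause was not tested.

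Replicate numbers recur between the tissues, but no label says whether a number is an animal, so they were not taken as pairs. Same-numbered deviations from the group means correlated across genes with r = 0.0566 for the KI numbers and -0.0965 for the WT numbers. Within a group the deviations mirror each other, so the numbers of a genotype share their r. These r therefore cannot decide whether the same number marks the same animal. With the replicate block the difference between the tissues called 14 genes, against 21 without it, and the tissue comparison 3823 in both. Within a tissue KI and WT share no number, so no block could be fitted there.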

Other observations

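The MEF2 regulators Mamstr and Kat2b, called higher in KI muscle, had differences of the other sign in the cerebellum that did not pass. For Mamstr KI minus WT was 0.51 in muscle and -0.34 in the cerebellum (adjusted p = 0.702, limma), and the difference between the tissues of 0.85 had an adjusted p of 0.0822. In KI cerebellum Mamstr was at 5.03 and 5.08, just above the 40th percentile of those arrays (4.99 and 5.05). Its cerebellum value and the difference between the tissues therefore rest on levels near the bottom of what was tested. For Kat2b KI minus WT was 0.56 in muscle and -0.29 in the cerebellum (adjusted p = 0.918), and the difference of 0.84 had an adjusted p of 0.106. Neither difference between the tissues passed.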
